A study of Mus musculus with 14 samples.

Results

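The cytochrome P450 genes of the mouse liver were compared between livers of mice with acute liver failure and livers of mice injected with saline. Members were the genes whose symbol is Cyp followed by a family number, a subfamily letter and a gene number, together with Por, which encodes the NADPH-dependent reductase that feeds electrons to microsomal P450s. Cyp7a1, Cyp7b1, Cyp8b1 and Cyp27a1, which serve bile acid synthesis, and 33 symbols of pseudogenes were left out. This gave 97 members of 55357 genes with a row, namely 96 P450 genes in 35 subfamilies and Por. The 8 model livers came from male C57BL/6 mice injected intraperitoneally with lipopolysaccharide (LPS, 10 µg/kg), a component of the bacterial cell wall, and D-galactosamine (D-GalN, 300 mg/kg), an amino sugar toxic to hepatocytes. The 6 control livers came from male C57BL/6 mice injected with saline, and all mice were 5 to 6 weeks old before 1 week of acclimatisation. Tissue was taken 24 h after the injection, and no group of either agent alone is among the samples analysed here. The labels do not say that each sample is a separate animal, and p-values therefore speak only to the spread among the 14 samples.

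P450 enzymes are heme proteins that insert 1 oxygen atom into a substrate, and in the liver most of them sit in the endoplasmic reticulum of hepatocytes, at higher levels near the central vein for many members. Families 1 to 3 mainly oxidise drugs, toxins and steroids, family 4 mainly hydroxylates fatty acids and eicosanoids, and the higher families mostly make or break down steroids, vitamin D and retinoic acid. Their transcription in liver is set by nuclear receptors and liver factors, among them the xenobiotic receptors PXR (Nr1i2) and CAR (Nr1i3), the aryl hydrocarbon receptor (AhR), PPARA, HNF4A and C/EBP proteins. Many P450 genes are known to be repressed in liver during inflammation.

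The model libraries held 10329469 to 16639972 counts in genes, and the control libraries 7914120 to 14463540. Values are counts scaled to library size (CPM) with TMM scaling, whose factors were 0.768 to 1.067 in model and 0.959 to 1.266 in control libraries. Mitochondrial genes took 6.46% to 20.8% of gene counts in model and 6.18% to 8.57% in control libraries, with the highest shares in model 3 and model 4. All 7 hepatocyte markers with a row were present in every library, summing to 82461 to 97564 CPM in model and 54027 to 75522 CPM in control. As a share of gene counts the same markers took 6.33% to 10.4% in model and 5.18% to 9.56% in control, and these ranges overlapped. All 8 neutrophil markers were higher in model, with a summed level of 1210 to 2797 CPM in model and 4.08 to 16.5 CPM in control, where Ly6g had no count. The 8 monocyte and macrophage markers were also all higher, at 352.1 to 607.7 CPM in model and 135.9 to 337.7 CPM in control. In bulk tissue, fewer cells of a type and less RNA per cell cannot be told apart.

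In the failing livers more P450 genes were higher than lower, and on the TMM scale none of the 5 that fell averaged as much as 100 CPM over the libraries. Of the 58 members with enough counts to be tested, edgeR's quasi-likelihood test called 24 at a Benjamini-Hochberg adjusted p under 0.05, with 19 of them higher and 5 lower in model, and 34 had no call. Over all 12915 genes tested, 47.9% were called, 26.6% higher and 21.3% lower. Members called with a change of at least 2-fold numbered 6 higher and 4 lower, where 20.3% and 12.7% of all genes were called in that way. The median log2 fold change (model over control) was 0.40 over the tested members and 0.01 over all genes tested. Log2 fold changes were above 0 in 46 of the 58 and below 0 in 12. The 5 lower genes were Cyp2g1, Cyp2u1, Cyp2r1, Cyp2j9 and Cyp3a59. Model and control CPM ranges lay apart in 7 members and in 23.2% of all genes tested. Model was above control in Cyp2b10, Cyp2j6, Cyp4f18 and Cyp20a1, where 14.6% of all genes tested did so, and below it in Cyp2g1, Cyp2r1 and Cyp2u1, where 8.63% did.

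The count of higher members depended on the scaling. When libraries were scaled by their totals alone, the median of all genes moved to -0.23 and that of the members to 0.15 on the log2 scale. With this scaling 19.6% of all genes tested were higher and 30.6% lower. Of the 58 members, 8 were higher and 7 lower. All 8 were also higher with TMM scaling: Cyp1b1, Cyp2b10, Cyp2c37, Cyp2c50, Cyp2c54, Cyp2j6, Cyp4f14 and Cyp4f18. The 5 lower members stayed lower, and Cyp2c68 and Cyp3a25 joined them. Of the 24 members called, 12 kept their call under every alternative tried, 8 of them higher and 4 lower. All directions that follow are on the TMM scale.

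**Figure D1:**
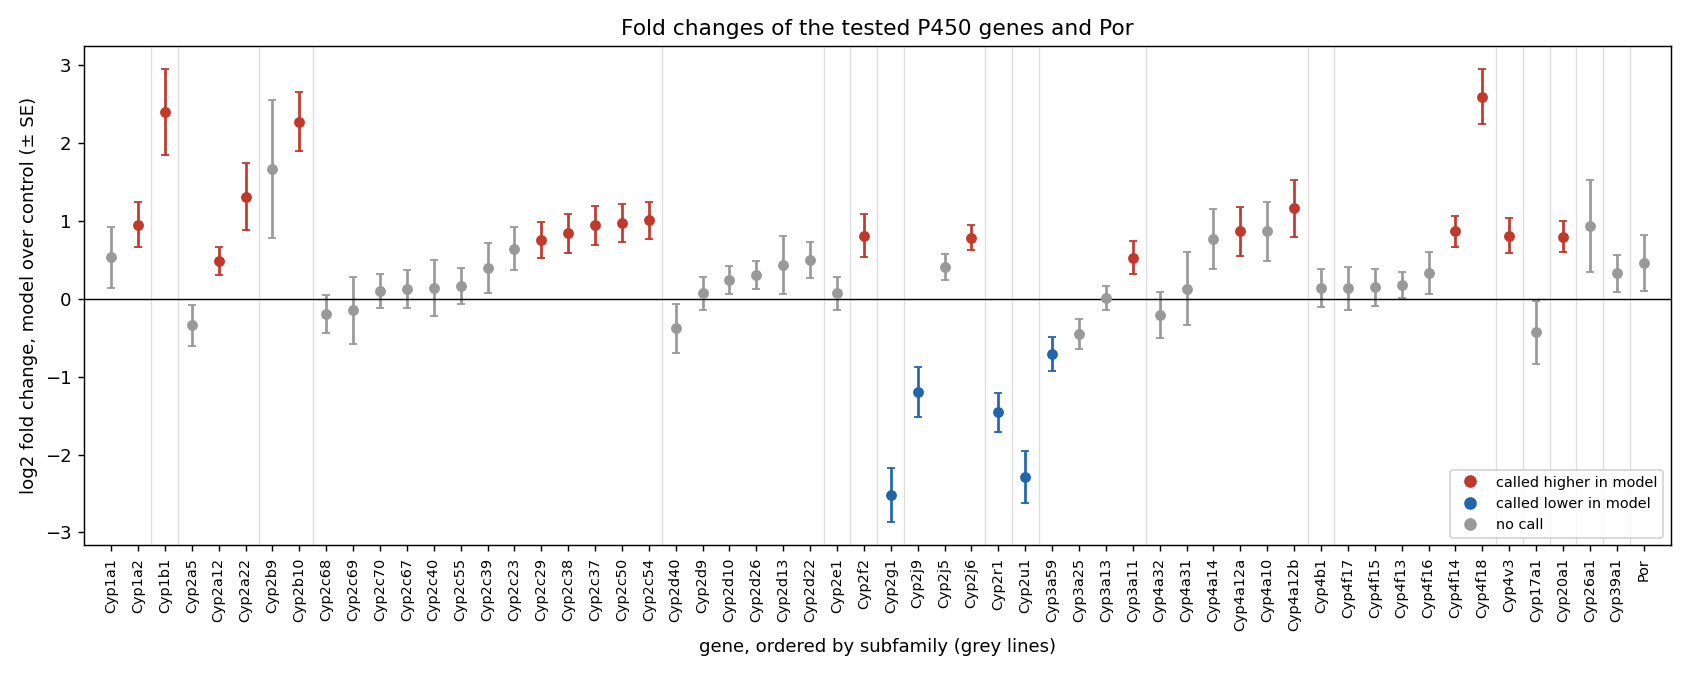
Log2 fold change, model over control (y axis, bars show the standard error), of the 58 tested members ordered by subfamily (x axis), with 19 called higher, 5 called lower and 34 without a call on the TMM scale. With library totals 8 are higher and 7 lower. The shares of all genes tested were 26.6% higher and 21.3% lower on the TMM scale, and 19.6% and 30.6% with library totals.

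Members were also counted by their level. Among the P450 genes that averaged 100 CPM or more over all libraries, 27 were tested, 11 were higher and 0 lower, although Cyp2c68 and Cyp3a25 of this group were called lower with library totals. Among those of 5 to 100 CPM, 19 were tested, 5 were higher and 3 lower. Of the 50 below 5 CPM only 11 were tested, with 3 higher and 2 lower. From the most to the least abundant set, 40.7%, 26.3% and 27.3% of those tested were higher, where 26.6% of all genes tested were. The lower shares were 0%, 15.8% and 18.2%, where 21.3% of all genes tested were lower. Per kb of exonic length, Cyp2e1 led in both groups, at 1932 CPM per kb in model and 1841 CPM per kb in control. Cyp3a11 followed at 1708 CPM per kb in model and 1183 in control, and Cyp2c29 at 596.2 in model and 353.4 in control. Below these the order differed between the groups: Cyp2f2 was the fourth gene in model and the tenth in control, and Cyp2a5 the eleventh in model and the fourth in control.

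In family 1, whose members are textbook targets of the AhR, 2 of 3 genes were higher, where 26.6% of all genes tested were. Cyp1a2, the form that hepatocytes hold at high levels and that oxidises caffeine and aromatic amines, was at 387.9, 610.3 and 879.6 CPM in model (lowest, median and highest) and at 178.9, 239.3 and 539.6 CPM in control. Control 3 and control 6 reached into the model range, so the groups overlapped. The log2 fold change was 0.95 (SE 0.29, adjusted p = 0.011 by edgeR's quasi-likelihood test), and with library totals it was 0.61 without a call (adjusted p = 0.101). Cyp1b1, an AhR target expressed mostly outside hepatocytes, was at 0.319, 1.52 and 3.54 CPM in model and at 0, 0.282 and 0.674 CPM in control. All model livers but model 3 exceeded every control, at a level of few counts per library. Its log2 fold change was 2.41 (SE 0.55, adjusted p = 0.0016 by edgeR). Cyp1a1, the most inducible AhR target, was at 0.601, 1.48 and 3.09 CPM in model and 0.576, 1.10 and 1.54 CPM in control without a call (log2 fold change 0.53, adjusted p = 0.27 by edgeR).

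Cyp2b10, the gene used most often as a readout of CAR in mouse liver, had one of the largest rises of the family. It was at 16.5, 36.3 and 83.1 CPM in model and at 4.13, 7.02 and 14.4 CPM in control. Every model liver was above every control liver, with model 8 the highest and model 3 the lowest of its group. The log2 fold change was 2.27 (SE 0.38, adjusted p = 9.18e-05 by edgeR), and it stayed between 1.92 and 2.54 under all 22 alternatives. Another member, Cyp2b9, had no call, with 18.4 CPM in the highest model liver but a median of 1.52 CPM in model and 0.646 CPM in control.

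Of the 3 tested Cyp2a genes, 2 were higher, where 26.6% of all genes tested were. Cyp2a22 was at 1.79, 3.37 and 8.36 CPM in model and 0.318, 1.51 and 2.39 CPM in control (log2 fold change 1.31, SE 0.43, adjusted p = 0.018 by edgeR). Its call was lost with library totals (log2 fold change 1.02, adjusted p = 0.064) and without model 3 and model 4 (0.87, adjusted p = 0.085). Cyp2a12, a steroid hydroxylase, had a log2 fold change of 0.49 (SE 0.18, adjusted p = 0.037 by edgeR), a call that was lost in 12 of 22 alternatives. The open reading frames of Cyp2a12 and Cyp2a22 share 97.0% of their bases, so reads may be split between them. Cyp2a5, the coumarin hydroxylase of mouse liver, was at 328.5, 548.3 and 907.9 CPM in model and 341.2, 734.7 and 927.8 CPM in control, with full overlap and no call (log2 fold change -0.34, adjusted p = 0.31 by edgeR). The summed Cyp2a level had a log2 ratio of 0.004, which was -0.258 with library totals and -0.032 with DESeq2 size factors.

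The Cyp2c subfamily, which makes epoxides of arachidonic acid and oxidises many drugs, had 5 of 13 tested members (38.5%) higher and 0 lower. The shares of all genes tested were 26.6% higher and 21.3% lower. In the gene order of RefSeq, 14 Cyp2c genes lie next to each other on chromosome 19, and the calls were set beside that order. Cyp2c37, Cyp2c54 and Cyp2c50 are adjacent and were all higher. The 4 adjacent genes before them, Cyp2c67, Cyp2c68, Cyp2c40 and Cyp2c69, had no call, with log2 fold changes from -0.20 to 0.14. Cyp2c29 and Cyp2c38, before those, were higher, but Cyp2c39 between them had no call (0.39). Neither gene at the ends of the order, Cyp2c55 (0.16) and Cyp2c70 (0.10), had a call. Several of these genes are close copies of each other, so they are not independent observations, and this order was looked at after the fold changes were known.

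To set these genes beside their upstream sequence, motifs were searched on both strands of the 250 bases before each start in the RefSeq promoter table, build GRCm38.p6, where 75 of the 97 members had 85 windows. The AhR motif GCGTG was in 20% of member windows and 28.2% of all 32851 windows, the C/EBP motif TTGCNNAA in 23.5% and 9.56%, the HNF4 motif CAAAGTCCA in 11.8% and 0.384%, and the NF-kB consensus in 0% and 0.98%. The HNF4 motif was in 10 member windows, all of them of Cyp2c or Cyp3a genes, among which are close copies of each other. These included the genes without a call Cyp2c40, Cyp2c67, Cyp2c68, Cyp2c69 and Cyp2c70 and, among genes called higher, Cyp3a11. It was not found in the windows of Cyp2c29, Cyp2c37, Cyp2c38 and Cyp2c50, which held its first letters, CAAAGT. The same held for both windows of Cyp2c39, a gene without a call, and the window of Cyp2c55, also without a call, held neither, so the words did not separate the genes called higher from the others. The shorter word was in 41.2% of member windows and 12.6% of all windows. The shorter word and the windows printed here were chosen after matches and fold changes were known, the search was not tested, and a match is not evidence of binding. The sequences are the 150 bases up to the start, on the strand of the gene, 5′ to 3′, with CAAAGT or CAAAGTCCA in capitals. The first 3 are from genes called higher, at chr19:39286935-39287084 (plus strand), chr19:39992274-39992423 (plus) and chr19:40089529-40089678 (plus), and the last 3 from genes without a call, at chr19:39812815-39812964 (minus), chr19:39649043-39649192 (minus) and chr19:40187287-40187436 (minus).
Cyp2c29: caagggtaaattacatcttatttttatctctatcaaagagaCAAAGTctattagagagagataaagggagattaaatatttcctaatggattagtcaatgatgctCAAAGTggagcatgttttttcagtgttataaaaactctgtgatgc
Cyp2c37: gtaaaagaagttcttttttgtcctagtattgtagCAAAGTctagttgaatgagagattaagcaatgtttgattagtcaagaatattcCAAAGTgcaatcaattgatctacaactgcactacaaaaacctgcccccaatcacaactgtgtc
Cyp2c50: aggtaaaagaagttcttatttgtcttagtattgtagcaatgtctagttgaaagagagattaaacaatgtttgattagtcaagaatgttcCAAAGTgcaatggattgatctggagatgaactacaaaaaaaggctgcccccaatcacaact
Cyp2c40: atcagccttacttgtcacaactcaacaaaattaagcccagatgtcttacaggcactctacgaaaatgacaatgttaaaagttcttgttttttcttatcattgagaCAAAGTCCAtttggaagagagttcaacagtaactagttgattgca
Cyp2c67: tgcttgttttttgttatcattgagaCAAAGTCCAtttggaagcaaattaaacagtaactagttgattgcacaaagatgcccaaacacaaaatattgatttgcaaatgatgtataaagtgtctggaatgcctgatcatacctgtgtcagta
Cyp2c70: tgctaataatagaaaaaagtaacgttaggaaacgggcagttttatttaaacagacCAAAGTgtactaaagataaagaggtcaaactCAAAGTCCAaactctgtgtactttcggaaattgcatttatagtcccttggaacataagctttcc

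In the printed windows the full motif begins 45, 125 and 64 bases before the start in Cyp2c40, Cyp2c67 and Cyp2c70. Cyp2c29 and Cyp2c37 hold the shorter word at 2 places each, and Cyp2c50 at 1 place.

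Among the Cyp2c genes that were higher, Cyp2c29 was the most abundant, at 1289, 1685 and 2443 CPM in model and 702.3, 892.2 and 1819 CPM in control. Control 3 and control 6 reached into the model range. Its log2 fold change was 0.75 (SE 0.23, adjusted p = 0.013 by edgeR), against 0.43 without a call with library totals. Cyp2c54 was at 191.8, 321.7 and 495.3 CPM in model and 95.2, 170.1 and 246.5 CPM in control (log2 fold change 1.01, SE 0.24, adjusted p = 0.0019 by edgeR). Cyp2c50 and Cyp2c37 had log2 fold changes of 0.97 and 0.94, and all 3 kept their call with library totals (adjusted p = 0.023 for Cyp2c54, 0.049 for Cyp2c50 and 0.036 for Cyp2c37). Cyp2c70, which in mouse makes muricholic acid, was at 385.9, 613.5 and 1002 CPM in model and 428.0, 580.9 and 713.5 CPM in control. The open reading frames of Cyp2c37 and Cyp2c50 share 96.1% of their bases, those of Cyp2c54 and Cyp2c50 95.2%, and those of Cyp2c40 and Cyp2c69 97.9%, so how the counting split shared reads bears on each single value.

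**Figure D2:**
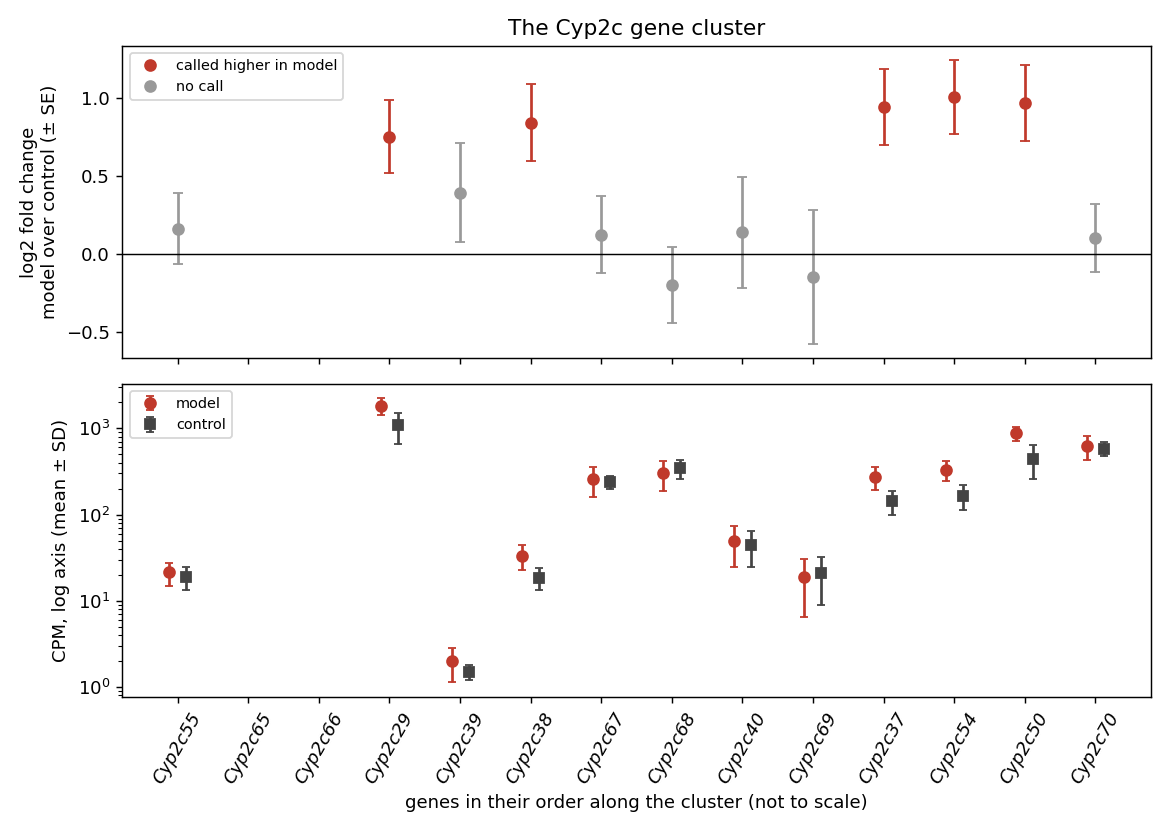
Cyp2c genes in their order along the cluster (x axis, not to scale), with the log2 fold change, model over control, and its standard error (upper panel) and the mean CPM ± SD of model and control livers on a log axis (lower panel). Cyp2c37, Cyp2c54 and Cyp2c50 were called higher on the TMM scale and with library totals; the 4 genes before them had no call on the TMM scale, and Cyp2c68 was called lower with library totals.

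Among the abundant genes outside Cyp2c, Cyp2e1 and the Cyp2d genes had no call. Cyp2e1, which oxidises ethanol and turns paracetamol into its reactive metabolite, was at 2558, 4337 and 5536 CPM in model and at 2884, 4012 and 5076 CPM in control. The groups overlapped fully, with a log2 fold change of 0.07 (SE 0.22, adjusted p = 0.81 by edgeR) and -0.24 with library totals. None of the 6 tested Cyp2d genes, which include the testosterone hydroxylase Cyp2d9, had a call, with log2 fold changes from -0.38 (Cyp2d40) to 0.50 (Cyp2d22). Cyp2f2, a periportal enzyme known for activating naphthalene, was at 614.9, 816.3 and 1257 CPM in model and 229.6, 426.7 and 840.9 CPM in control. Its log2 fold change of 0.81 (SE 0.28, adjusted p = 0.024 by edgeR) lost its call in 7 of 22 alternatives, and the gene shares 274 exonic bases with Gm15883 on the other strand.

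Among the 58 tested members the largest falls were in 3 single-gene subfamilies of family 2. Cyp2g1, best known from the olfactory mucosa, was at 0.106, 0.50 and 1.02 CPM in model and 2.19, 2.87 and 3.72 CPM in control. All model livers were below all controls. Its log2 fold change was -2.52 (SE 0.35, adjusted p = 1.38e-05 by edgeR), at a level of few counts per library.

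Cyp2u1, which hydroxylates long-chain fatty acids, was at 2.26, 5.76 and 10.9 CPM in model and 19.3, 31.9 and 39.3 CPM in control. The groups did not overlap, and the highest model livers were model 3 and model 4. The log2 fold change was -2.29 (SE 0.33, adjusted p = 2.21e-05 by edgeR), with a range of -2.67 to -2.05 over the alternatives. Cyp2u1 shares 548 exonic bases with 4930534D22Rik on the other strand in the GRCm38 annotation, and counts without a stated strand setting cannot tell them apart.

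Cyp2r1, the main vitamin D hydroxylase of the liver, was at 4.35, 7.89 and 10.9 CPM in model and 11.4, 22.3 and 33.1 CPM in control. The groups did not overlap, although control 6, the lowest control, lay close to the highest model liver. The log2 fold change was -1.46 (SE 0.25, adjusted p = 0.00014 by edgeR). Of the other vitamin D genes, Cyp27b1, which makes the active hormone, had 18 counts over the model libraries and 0 over the controls. That was too few to pass the filter, and without the filter it was called higher (adjusted p = 0.008 by edgeR). Its pooled model level was 4.47-fold a floor of 3 counts over the control group, with no allowance for counting error in the model. Cyp24a1, which breaks the hormone down, had no count in any library.

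**Figure D3:**
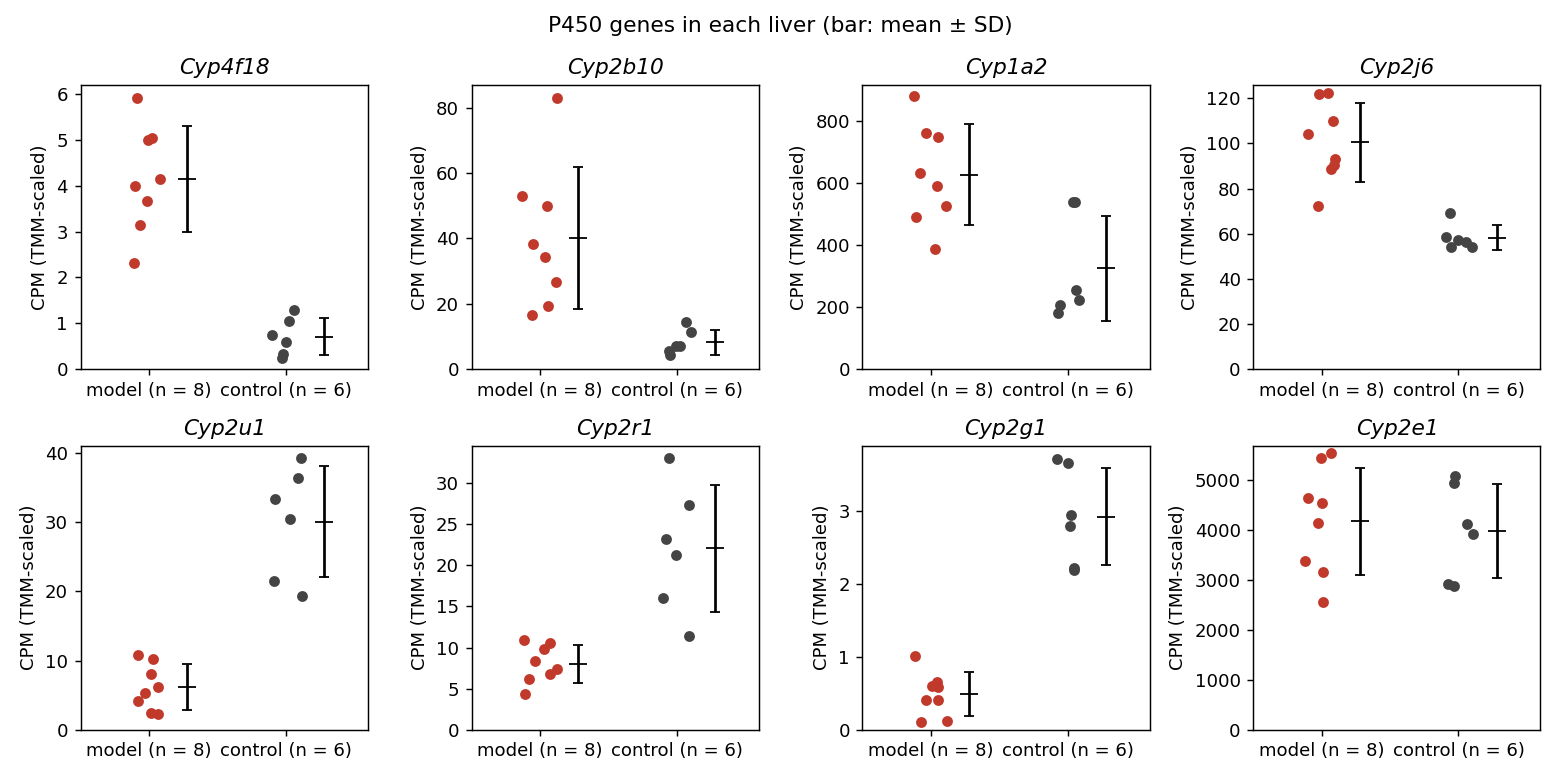
CPM (y axes, TMM-scaled) of 8 P450 genes in each of the 8 model and 6 control livers, with points for livers and bars for the mean ± SD. The groups do not overlap for Cyp4f18, Cyp2b10, Cyp2j6, Cyp2u1, Cyp2r1 and Cyp2g1, and they overlap for Cyp1a2 and Cyp2e1.

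The Cyp2j genes, epoxygenases of arachidonic acid, moved in both directions. Cyp2j6 was at 72.4, 98.7 and 122.5 CPM in model and 53.9, 56.8 and 69.3 CPM in control. The groups did not overlap, with control 6 the highest control and model 8 the lowest model liver. Its log2 fold change was 0.78 (SE 0.16, adjusted p = 0.00066 by edgeR). Cyp2j9 was at 0.595, 1.59 and 2.74 CPM in model and 2.24, 3.58 and 4.75 CPM in control (log2 fold change -1.19, SE 0.32, adjusted p = 0.0048 by edgeR). Cyp2j5, the abundant form in liver and kidney, lay just outside the threshold at 456.8, 647.5 and 714.8 CPM in model and 385.6, 470.9 and 520.3 CPM in control (log2 fold change 0.41, adjusted p = 0.051 by edgeR).

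In the Cyp3a subfamily, the mouse relatives of the main human drug-oxidising P450, 1 of 4 tested genes was higher and 1 lower. Cyp3a11, the main adult form, was at 6569, 7834 and 12260 CPM in model and 4170, 6144 and 7057 CPM in control. Its log2 fold change of 0.53 (SE 0.21, adjusted p = 0.043 by edgeR) lost its call in 13 of 22 alternatives. Cyp3a59 was at 27.1, 33.8 and 46.8 CPM in model and 30.9, 59.0 and 83.1 CPM in control (log2 fold change -0.71, SE 0.22, adjusted p = 0.013 by edgeR). Its near copy Cyp3a25, with 97.5% of the open reading frame shared, had a log2 fold change of -0.45 without a call (adjusted p = 0.067 by edgeR). Cyp3a13 was at 97.1, 102.0 and 120.9 CPM in model and 79.8, 105.0 and 128.4 CPM in control. Of 9 targets of CAR and PXR listed for mouse liver, 6 were higher and 0 lower, and Cyp2a5, Cyp2c55 and Cyp3a13 had no call. Over all genes tested, 26.6% were higher and 21.3% lower. The 6 include the near copies Cyp2c37, Cyp2c50 and Cyp2c54, and Cyp2c29 and Cyp3a11 lost their call with library totals.

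Family 4 had 5 of 14 tested members (35.7%) higher and 0 lower, beside 26.6% and 21.3% of all genes tested. Cyp4f18, which inactivates leukotriene B4 by hydroxylation and is known from mouse neutrophils, had the largest rise among the 58 tested members. It was at 2.31, 4.08 and 5.92 CPM in model and 0.237, 0.660 and 1.28 CPM in control. Every model liver was above every control, and the log2 fold change was 2.59 (SE 0.36, adjusted p = 1.12e-05 by edgeR). All 8 neutrophil markers were higher in these livers too, with the levels given above, and their part in this result was not tested. Cyp4f18 shares 181 exonic bases with Zfp961 on the other strand. Cyp4f14, the main hepatic form that also hydroxylates leukotriene B4, was at 140.7, 227.1 and 259.4 CPM in model and 75.2, 119.5 and 165.8 CPM in control (log2 fold change 0.87, SE 0.20, adjusted p = 0.0015 by edgeR). The other 4 tested Cyp4f genes had no call.

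The Cyp4a genes omega-hydroxylate fatty acids, and Cyp4a10 and Cyp4a14 are the standard PPARA targets of mouse liver. Cyp4a10 was at 78.0, 179.9 and 329.7 CPM in model and 48.5, 88.4 and 234.7 CPM in control. The controls spread widely, with overlap and no call (log2 fold change 0.87, SE 0.38, adjusted p = 0.07 by edgeR). None of the 4 PPARA targets passed the test in the main fit. Without control 6, both Cyp4a10 and Cyp4a14 were called higher. Over the 22 alternatives, Cyp4a10 stayed without a call in 18 and Cyp4a14 in 21. Cyp4a12a and Cyp4a12b, male-biased genes with 98.5% of the open reading frame shared, were called higher, with log2 fold changes of 0.87 (adjusted p = 0.031 by edgeR) and 1.16 (adjusted p = 0.013), and neither kept its call with library totals. Cyp4v3, a fatty acid hydroxylase, was at 226.1, 292.1 and 427.1 CPM in model and 104.3, 170.1 and 251.5 CPM in control (log2 fold change 0.81, adjusted p = 0.0069 by edgeR), likewise without a call with library totals. Of the sex-biased genes, 2 of 3 male-biased ones were higher, and of 10 female-biased ones 4 could be tested and none had a call, in livers that were all from males. These sets are small, and 26.6% of all genes tested were higher and 21.3% lower.

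In families 11 to 46, most of which act in steroid, vitamin D and retinoic acid metabolism, 4 of 14 genes could be tested. Cyp20a1, an orphan P450 with no established substrate, was at 8.44, 12.2 and 14.7 CPM in model and 5.00, 7.19 and 8.40 CPM in control, with no overlap and the lowest model value just above the highest control (log2 fold change 0.80, SE 0.20, adjusted p = 0.0033 by edgeR). Its call was lost with library totals (adjusted p = 0.06). Cyp26a1, which clears retinoic acid, ranged from 1.24 to 24.2 CPM in model and from 1.04 to 15.3 CPM in control. Cyp26b1, another retinoic acid hydroxylase, had 12 counts in all model libraries and 67 in all control libraries. It did not pass the filter, and without the filter it was lower in model (log2 fold change -2.82, adjusted p = 0.0013 by edgeR). Cyp17a1 and Cyp39a1, a sterol hydroxylase, had no call. In all, 39 members did not pass the filter, of which 12 had no count in any library and none exceeded 0.937 CPM in a group mean. Without the filter 85 members were tested, 20 were higher and 7 lower. Of the 25293 genes tested in that way, 17.5% were higher and 11.6% lower.

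Por had no call. It was at 125.3, 164.6 and 466 CPM in model and 90.7, 127.0 and 345.5 CPM in control, with model 7, model 8 and control 6 far above the others of their groups (log2 fold change 0.46, SE 0.36, adjusted p = 0.31 by edgeR). Without control 6 it was called higher (adjusted p = 0.039). Other genes that serve the P450 enzymes were taken from a list that was chosen with earlier results of these data known. Of 7 tested electron partners only Fdx1, the ferredoxin of mitochondrial P450s, was called, at a log2 fold change of -0.93. Among all genes tested, 47.9% were called. Among the heme synthesis genes, Uros (-1.06) and Urod (-0.59) were lower and none was called higher; Alas1, the rate-limiting step, had no call (0.57, adjusted p = 0.40 by edgeR). Hmox1, the inducible enzyme that breaks down heme, was at 183.7, 314.1 and 635.9 CPM in model and 12.7, 15.8 and 23.0 CPM in control (log2 fold change 4.32, SE 0.33, adjusted p = 1.04e-08 by edgeR), while its constitutive counterpart Hmox2 fell by 1.21 on the log2 scale without overlap of the groups. Hmox2 shares 892 exonic bases, 40.2% of its length, with Cdip1 on the other strand.

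Of the transcription factors listed as regulators of P450 genes, more were lower than higher. Of 25 tested, 3 were higher, 13 lower and 9 had no call. Over all genes tested, 26.6% were higher and 21.3% lower. Nr1i3, the receptor CAR, was at 7.85, 36.3 and 94.8 CPM in model and 76.0, 117.9 and 159.8 CPM in control (log2 fold change -1.53, SE 0.40, adjusted p = 0.0042 by edgeR); most of its exonic length overlaps Tomm40l on the other strand. Nr1i2, the receptor PXR, was at 11.0, 20.4 and 44.4 CPM in model and 40.1, 47.7 and 54.1 CPM in control (log2 fold change -1.12, SE 0.26, adjusted p = 0.0017 by edgeR). Model 4 for Nr1i3 and model 8 for Nr1i2 reached into the control range. None of the 9 targets listed for these receptors was called lower, and a link between the receptor levels and these targets was not tested.

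Nr1h4, the bile acid receptor FXR, was at 21.8, 26.2 and 29.4 CPM in model and 105.1, 112.2 and 155.4 CPM in control, with no overlap (log2 fold change -2.18, SE 0.15, adjusted p = 2.14e-09 by edgeR). Its target Nr0b2, the repressor SHP, had a log2 fold change of -2.15. The clock-controlled factors Dbp, Hlf and Tef, which act on xenobiotic genes in mouse liver, had log2 fold changes of -2.84, -2.47 and -1.64. Cebpa was lower (-1.41) and Cebpb higher (2.70), each without overlap of the groups. Cebpb shares 20.7% and Dbp 18.0% of their exonic length with a gene on the other strand. Ppara (-1.01), Foxa2 (-0.94) and Nr1h3 (-0.75) were also lower, and Rora (1.20) and Arnt (0.78) were higher. Rora lost its call in 15, Nr1h3 in 9 and Arnt in 3 of 22 alternatives, and neither Rora (adjusted p = 0.131) nor Arnt (adjusted p = 0.16) was called by edgeR with library totals. Hnf4a had no call (0.84, adjusted p = 0.087 by edgeR), with 1011 CPM in its highest model liver against 298.8 CPM in its highest control. Ahr, Nr3c1, Rxra and Stat5b had no call either.

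**Figure D4:**
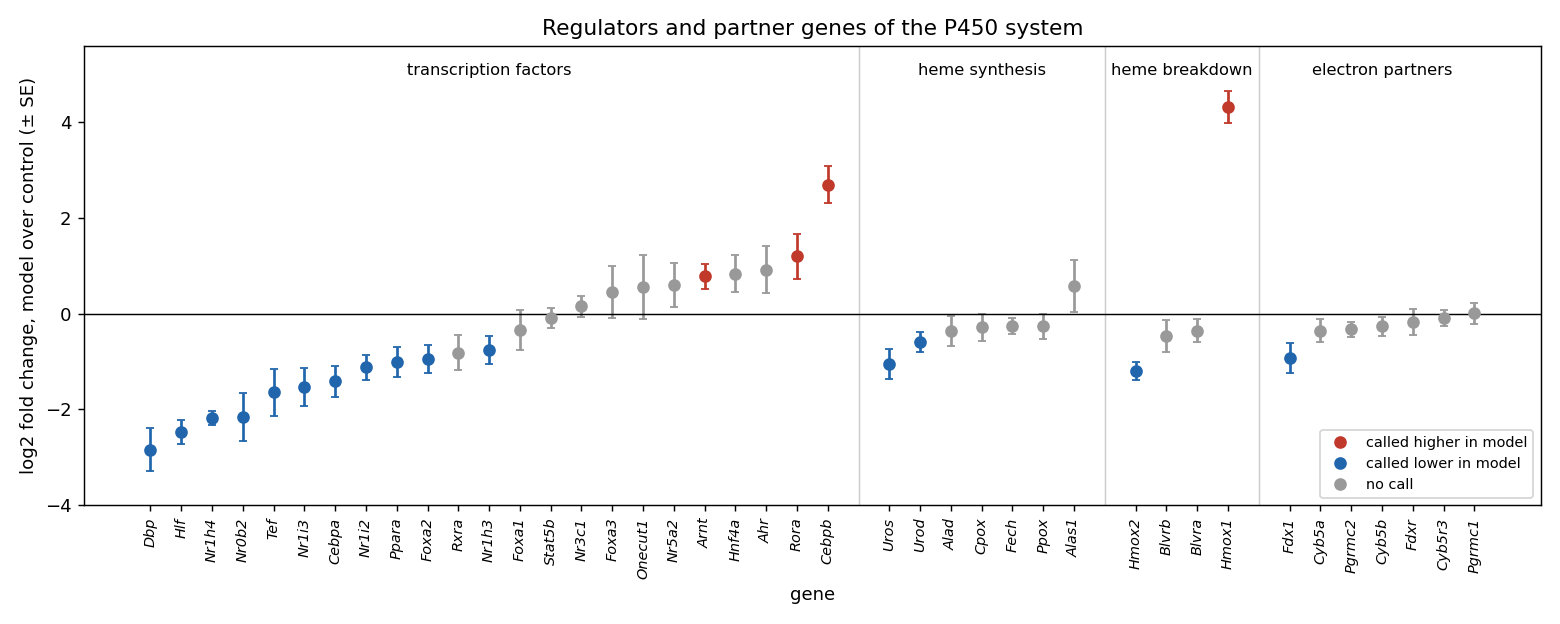
Log2 fold change, model over control (y axis, bars show the standard error), of tested transcription factors, heme synthesis and breakdown genes and electron partners (x axis), leaving out a few that are not reported here. Of all 44 tested, 4 were higher and 18 lower on the TMM scale, beside 26.6% and 21.3% of all genes tested.

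Summed over all P450 genes, the level was 17702 to 32813 CPM in model and 16486 to 23032 CPM in control, with overlap and a log2 ratio of the means of 0.39. As a share of gene counts the sum was 1.89% to 2.61% in model and 1.65% to 2.92% in control, and the log2 ratio with library totals was 0.10. The hepatocyte markers summed to a log2 ratio of 0.52 on the TMM scale, and the part of hepatocyte content in the P450 values was not tested. Model 8 was the lowest of the model group and control 6 the highest of the controls, and these livers had the lowest value of their group in 30 and the highest in 31 of the 58 tested members. Among the larger subfamilies the log2 ratio of summed CPM was 0.57 for Cyp2c, 0.46 for Cyp3a, 0.84 for Cyp4a, 0.60 for Cyp4f and 0.45 for Cyp2j. The sums of Cyp2a, Cyp2d, Cyp2e and Cyp4b turned their sign with library totals.

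**Figure D5:**
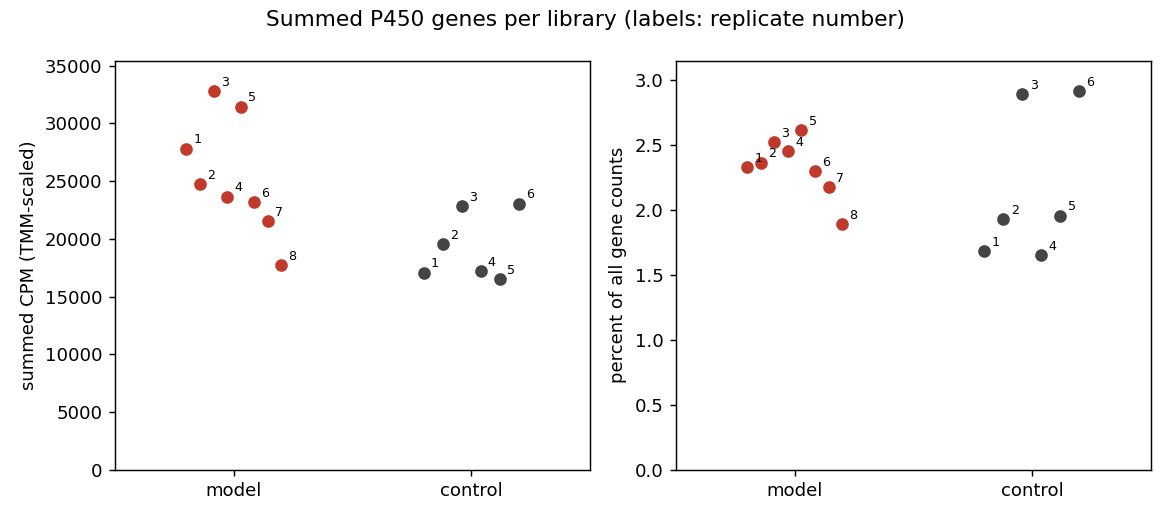
Summed level of the P450 genes in each library, as TMM-scaled CPM (left) and as a percent of all gene counts (right), with the replicate number beside each point. The ranges of model and control overlap on both scales, and control 3 and control 6 hold the highest shares of counts.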

How the data were processed

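RNA of 14 livers was analysed, 8 model and 6 control, grouped by the labels. The authors deposited unscaled counts of reads in each gene, with a file for every sample. HISAT2 and GRCm39 are named in the submitters' processing notes. Which program counted the reads, its strand setting, the annotation and the aligner version are not given in the sources used. The 5 summary lines of each file, 27.4% to 45.6% of its entries, were left out; reads aligned to several places made 13.4% to 18.6%, so values of near copies are uncertain.

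Genes passing filterByExpr (12915) were tested with edgeR 4.0.16 (R 4.3.3) using TMM factors, a robust quasi-likelihood fit on group alone and Benjamini-Hochberg adjustment, called at 0.05. SE is the log2 fold change over the root of F. On simulated counts for 12909 genes, 32% of 2-fold and 94% of 4-fold changes were recovered. Recovery with 47.9% of genes called, as in these livers, was not tested, and the share of changes missed here is not known. Among 43 pairs of libraries within groups, chi-square over its degrees of freedom was at least 23.3, so no library was counted as a copy.

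Members and gene lists were chosen with earlier results of these data known. Named genes are the 15 largest called rises and falls that averaged 2 CPM or more in model or control, the highest member of each subfamily and genes fixed by name; others are named as examples chosen after their values were seen. Exonic length, overlaps and open reading frames came from a GRCm38 annotation matched by identifier. Alternatives were library totals, DESeq2 size factors, DESeq2 1.42.0, limma-voom 3.58.1, no filter, a replicate block, length and GC offsets, and libraries left out. A few regulator and heme genes, counted within their lists, and 1 motif searched are not reported here.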

Additional observations from a re-analysis of the deposited data

Results flagged for a closer look

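Of 72 group values tested, 6 had one library far from the rest of its group, where chance alone gives about 1 in 20. Por stood at 345.5 CPM in control 6, with 181.1 CPM in the next control. Control 6 also stood apart for Cyp2j6 (69.33 CPM, next 58.67) and Cyp39a1 (13.0 CPM, next 8.466). Cyp17a1 was at 7.234 CPM in model 4, with 2.979 CPM in the next model liver, and Cyp3a13 at 120.9 CPM in model 5, with 105.9 CPM in the next. Cyp26a1 was at 15.27 CPM in control 3, with 5.644 CPM in the next control.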

How the results depend on the processing

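No direction of a called member or list gene was reversed under the alternatives run: over 1298 comparisons of a named gene with an alternative, 85 lost their call and 16 gained one. Members called higher numbered 8 with library totals, where 19.6% of all genes tested were higher. They numbered 15 to 25 with 1 library left out. The highest count came without control 6, where 30.5% of all genes tested were higher. Members called lower numbered 4 to 7 over all alternatives, where 11.6% to 30.6% of all genes tested were lower. Without model 3 and model 4, 16 members were higher and 6 lower, beside 27.5% and 20.5% of all genes tested. Regulators and partner genes called higher numbered 2 with library totals, 2 with the replicate block, 8 without model 3 and model 4, and 2 to 5 with 1 library left out. Those called lower numbered 15 to 25 over all alternatives. With library totals the log2 ratio of summed CPM was -0.111 for Cyp2d, 0.177 for Cyp2j and 0.103 for all P450 genes. The replicate block gave 22 members higher and 4 lower, beside 23.1% and 18.5% of all genes tested. Correlations of same-numbered deviations ran from -0.342 to 0.363. These values did not show pairing by replicate number and cannot exclude it. Urod lost its call in 8 of 22 alternatives and Fdx1 in 2. Cyp1b1, Cyp2g1 and Cyp27b1 rest on few counts per library, so their size is imprecise. The floors cover counting error in the control group only.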

Other observations

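Members below the filter add single observations. None of the following passed the filter, and the adjusted p given is that of edgeR without it. Cyp2d34 had 12 counts over the model libraries and 0 over the controls (adjusted p = 0.026). Its pooled model level was 2.98-fold a floor of 3 counts over the control group, with no allowance for counting error in the model. Cyp21a1, the steroid hydroxylase of the adrenal cortex, had 67 counts in model and 14 in control libraries (log2 fold change 1.76, adjusted p = 0.047). Cyp11a1, which starts steroid synthesis, had 16 counts in model and 3 in control libraries without a call (adjusted p = 0.17). Cyp2d11 had 14 counts in model and 39 in control libraries (log2 fold change -1.86, adjusted p = 0.037).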
